A study of Mus musculus with 37 samples.

Results

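Coenzyme A turnover was followed through 9 genes in the livers of mice given HFPO-DA, a short-chain fluorinated compound used in making fluoropolymers. The genes were Vnn1, Vnn3, Pank1, Pank2, Pank3, Ppcs, Coasy, Nudt7 and Nudt19, and every probe carrying one of these symbols was taken. They made up 11 of 30146 probes and 9 of 21450 gene symbols, with 3 probes for Pank2 and 1 for each other gene. All 11 were among the 18570 probes that passed the filter on low counts.

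Expression was measured by TempO-Seq, in which pairs of oligonucleotides are ligated on their target RNA and the ligated products are counted, in scraped sections of formalin-fixed liver. The mice were wild-type CD1, an outbred stock, of the parental generation of a reproduction study. All were gavaged once daily, with the ammonium salt of HFPO-DA in deionized water at 5, 0.5 or 0.1 mg/kg, or with the water alone (0 mg/kg). Males, aged about 6 weeks at the start, received 84 to 85 doses, over 70 days before mating and a mating period of 14 days, and the groups held 5, 5, 5 and 4 mice in order of dose. Females, aged about 11 weeks at the start, received 53 to 65 doses, from 14 days before mating to lactation day 20 or 21, and the groups held 5, 5, 4 and 4 mice. The sexes therefore also differed in age, number of doses and reproductive state, and these cannot be told apart from sex.

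Coenzyme A (CoA) carries acyl groups through fatty acid oxidation and synthesis. It is built from pantothenate, a vitamin, by pantothenate kinases (Pank1, Pank2 and Pank3, which catalyse the rate-controlling step), phosphopantothenoylcysteine synthetase (Ppcs), a decarboxylase (Ppcdc) and CoA synthase (Coasy). It is broken down by Nudix hydrolases such as the peroxisomal enzymes Nudt7 and Nudt19, and vanins (Vnn1, Vnn3), pantetheinases on or outside the cell surface, split the pantetheine that remains into pantothenate and cysteamine. Vnn1 and Pank1 are well known in liver as genes that the fatty acid receptor PPARα can switch on.

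Total counts ranged from 2101495 to 13878254 per mouse and were lowest in male replicate 3 at 5 mg/kg and male replicate 2 at 0.5 mg/kg. Of the 6 hepatocyte markers examined, all passed the filter, and their summed level ranged from 10204 to 22039 CPM (counts scaled to the size of each mouse's library) over the 37 mice. Of the 6 genes, 3 were called lower than in controls at 5 mg/kg in males and 2 in females. Over all probes, 8.49% were called lower in males at that dose and 2.26% in females. The 6 neutrophil markers, of which Elane had no count in any mouse, summed to 0 to 8.39 CPM in 35 mice, to 35.6 CPM in male replicate 1 at 5 mg/kg and to 110.9 CPM in male control replicate 2. In whole liver, fewer cells of a type and less RNA per cell cannot be told apart.

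The vanins are neighbours in the mouse genome, and the letters that differ between them bear on whether a probe can read only one. In the GENCODE M21 annotation (GRCm38), Vnn1 lies at chr10:23894688-23905343 and Vnn3 at chr10:23851462-23869843, both on the plus strand, each with 7 coding exons. Over 1477 aligned coding bases the genes were 67.4% identical, and the longest identical run was 12 bases. The most alike stretch of 50 coding bases, shown because it is where cross-reading would be easiest, joins exons 5 and 6 in both genes and differs at 7 bases, which are in capitals. It starts at coding base 1144 of Vnn1 (chr10:23900896-23903387, intron included) and 1153 of Vnn3 (chr10:23865951-23867095, intron included).
Vnn1: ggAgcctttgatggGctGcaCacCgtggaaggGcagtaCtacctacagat
Vnn3: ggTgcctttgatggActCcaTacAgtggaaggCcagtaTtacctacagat
Which bases the probes target was not analysed here.

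Vnn1 was the member with the largest dose response, in both sexes. In control males the probe had no count in 4 of 5 mice and 1.43 CPM in replicate 2. In males at 0.1 mg/kg it had 1.01 CPM in replicate 3 and no count in the other 4 mice. These groups hardly rose above zero, with 11 and 8 counts in all.

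At 0.5 mg/kg the 5 males had 3.55, 6.41, 1.48, 12.9 and 3.84 CPM of Vnn1. At 5 mg/kg the 4 males had 51.6, 27.6, 27.4 and 35.2 CPM. Each of these groups lay wholly above the controls, and the males at 5 mg/kg lay wholly above those at 0.5 mg/kg.

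A probe was called where the Benjamini-Hochberg adjusted p over all 18570 probes was under 0.10, and the dose comparisons within a sex share their control mice. Relative to controls, Vnn1 rose in males at 0.5 mg/kg by a log2 fold change of 4.23 ± 0.91 (SE, 95% interval 2.39 to 6.08, adjusted p = 0.0166, edgeR) and at 5 mg/kg by 6.88 ± 0.98 (SE, 4.91 to 8.85, adjusted p = 2.23e-06). The step from 0.5 to 5 mg/kg was itself called, at 2.65 ± 0.77 (SE, adjusted p = 0.0347), but not with each sex fitted apart (2.63, adjusted p = 0.149). The fold changes relative to controls rest on the 11 counts of control replicate 2, which is also the mouse with the high neutrophil markers. They correspond to 18.8-fold at 0.5 mg/kg and 118-fold at 5 mg/kg over all 5 controls. The call at 0.5 mg/kg was lost without replicate 4 of that group, its highest mouse (log2 fold change 3.62, adjusted p = 0.112).

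In females the Vnn1 probe was read in 4 of 5 controls, at 2.72, 0.102, 0, 0.688 and 2.83 CPM. At 0.1 mg/kg the 5 females had 2.44, 2.11, 3.02, 1.10 and 3.56 CPM, which overlapped the controls. At 0.5 mg/kg the 4 females had 7.32, 9.81, 6.74 and 12.4 CPM, and at 5 mg/kg 18.8, 38.9, 49.6 and 27.3 CPM. Neither the females at 0.5 mg/kg nor those at 5 mg/kg overlapped the group below them.

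Vnn1 rose in females at 5 mg/kg by a log2 fold change of 4.71 ± 0.84 (SE, 3.01 to 6.4, adjusted p = 0.000178), or 26.1-fold. At 0.5 mg/kg the log2 fold change was 2.81 ± 0.79 (SE), with an unadjusted p of 0.000962 by edgeR and an adjusted p of 0.458. This comparison was called when each sex was fitted apart (adjusted p = 0.0451), without the filter on low counts (0.0463) and with counts thinned to the smallest library (0.0112). The step from 0.5 to 5 mg/kg in females was 1.89 ± 0.80 (SE, adjusted p = 0.487), and was called with each sex fitted apart (1.88, adjusted p = 0.0818).

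The mean Vnn1 level at 5 mg/kg was 35.5 ± 11.4 CPM (SD, n = 4) in males and 33.6 ± 13.4 CPM (SD, n = 4) in females. The difference between the sexes in the log2 fold change, females minus males, was -2.17 ± 1.20 (SE, -4.59 to 0.25, adjusted p = 0.535) at 5 mg/kg and -1.42 ± 1.18 (SE, adjusted p = 1) at 0.5 mg/kg. Control females had a mean of 1.27 ± 1.40 CPM (SD, n = 5) and control males 0.285 ± 0.638 CPM (SD, n = 5), a log2 difference of 2.1 ± 0.92 (SE, adjusted p = 0.350). Without male control replicate 2 the male controls were all at 0 and this difference was called (adjusted p = 0.0118).

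**Figure D1:**
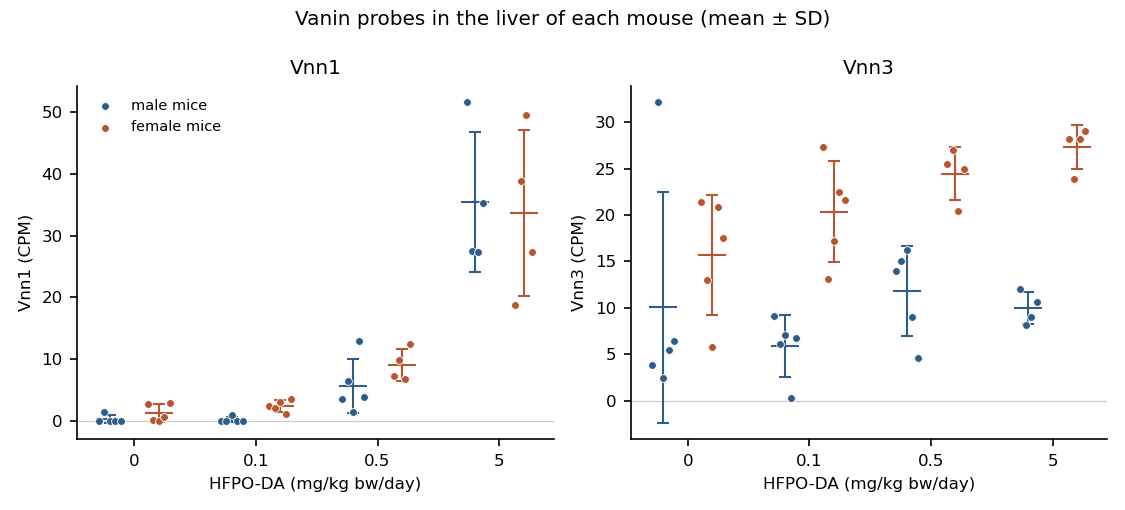
Vnn1 (left) and Vnn3 (right) in CPM on the y axes against dose on the x axes, with a point per mouse and bars for the mean ± SD of each group. Vnn1 lies at 27.4 CPM or above in all 4 males at 5 mg/kg, and Vnn3 reaches 32.2 CPM in 1 control male.

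Vnn3, the other vanin of this locus, was not called for any dose in either sex. Control males had 3.84, 32.2, 2.41, 5.45 and 6.39 CPM, and males at 5 mg/kg had 12, 8.16, 9.0 and 10.7 CPM. The 32.2 CPM belonged to control replicate 2, the mouse with 110.9 CPM of neutrophil markers, and the part of those cells in the value was not tested. The log2 fold change in males at 5 mg/kg was -0.01 ± 0.52 (SE, -1.06 to 1.03, adjusted p = 0.998), and 1.11 without that control (adjusted p = 0.143).

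Females had more Vnn3 than males at each dose by group mean. Control females had 21.4, 13, 5.81, 20.9 and 17.5 CPM, and females at 5 mg/kg had 28.2, 23.9, 28.2 and 29 CPM, so the groups did not overlap. The log2 fold change was 0.80 ± 0.50 (SE, -0.21 to 1.81, adjusted p = 0.636). Groups failed to overlap at 8.71% of all probes in this comparison. Vnn3 was called when each sex was fitted apart (0.80, adjusted p = 0.0708). At 0.5 mg/kg the 4 females had 20.5 to 27 CPM and the 5 males 4.61 to 16.3 CPM, and at 5 mg/kg all females were above all males, but no test between the sexes was made at these doses. Between controls the log2 difference, females minus males, was 0.64 ± 0.48 (SE, adjusted p = 0.810), and 1.77 without male control replicate 2 (adjusted p = 0.0217).

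Nudt7, the main CoA-hydrolysing Nudix enzyme of liver peroxisomes, differed between the sexes in controls. Control males had 194, 197, 289, 217 and 186 CPM and control females 37.7, 41.2, 114, 41.2 and 31.6 CPM. Every male was above every female, and female replicate 3 stood apart from the other 4 females. Nudt7 was lower in females by a log2 difference of -2.03 ± 0.27 (SE, -2.58 to -1.48, adjusted p = 1.11e-06). It was the only one of the 11 member probes called between control sexes, where 2.60% of all probes were called (1.24% lower in females).

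Nudt7 was then read across the doses in females. At 0.1 mg/kg they were 55.4, 40.4, 37.2, 37.4 and 39.5 CPM, at 0.5 mg/kg 72.4, 103, 120 and 76.0 CPM, and at 5 mg/kg 114, 75.5, 99.4 and 60.3 CPM. All 8 females of the upper 2 doses were above 4 of the 5 controls, and replicate 3 of the controls lay inside their range. Log2 fold changes were 0.81 ± 0.28 (SE, 0.25 to 1.37, adjusted p = 0.925) at 0.5 mg/kg and 0.72 ± 0.28 (SE, 0.16 to 1.28, adjusted p = 0.203) at 5 mg/kg, and neither was called. DESeq2 called the change at 5 mg/kg (0.74, adjusted p = 0.0904).

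Whether edgeR called these Nudt7 changes depended on a single control female, the highest of its group. Leaving out the highest control raises the fold change whatever the reason for its value. Without female control replicate 3, Nudt7 was called higher at 0.5 mg/kg (1.31, adjusted p = 0.0142) and at 5 mg/kg (1.19, adjusted p = 0.00173). That mouse had no Vnn1 count, and its Csad level, 13.5 CPM, was above those of the other 4 control females (0.999 to 2.76 CPM). Its neutrophil markers summed to 0. Nothing in the labels sets it apart.

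In males the Nudt7 values at 5 mg/kg were 140, 227, 137 and 129 CPM, of which 3 lay under every control. The log2 fold change was -0.45 ± 0.28 (SE, -1.02 to 0.11, adjusted p = 0.347), and -0.62 ± 0.28 (SE, adjusted p = 0.190) relative to 0.5 mg/kg, where the 5 males had 230, 289, 180, 244 and 272 CPM. This step was called without replicate 2 at 5 mg/kg (-0.88, adjusted p = 0.0837) or without female control replicate 3 (-0.65, adjusted p = 0.0994). The 0.1 mg/kg group ranged from 168 to 449 CPM.

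The difference between the sexes in the Nudt7 response at 5 mg/kg, females minus males, was 1.17 ± 0.39 on the log2 scale (SE, 0.37 to 1.96, unadjusted p = 0.00514 and adjusted p = 0.260 by edgeR). It was not called, but was without female control replicate 3 (1.65, adjusted p = 0.0128). Mean levels at 5 mg/kg were 158 ± 45.7 CPM (SD, n = 4) in males and 87.3 ± 23.9 CPM (SD, n = 4) in females, against 216 ± 42.2 CPM and 53.1 ± 34.2 CPM (SD, n = 5 each) in controls.

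**Figure D2:**
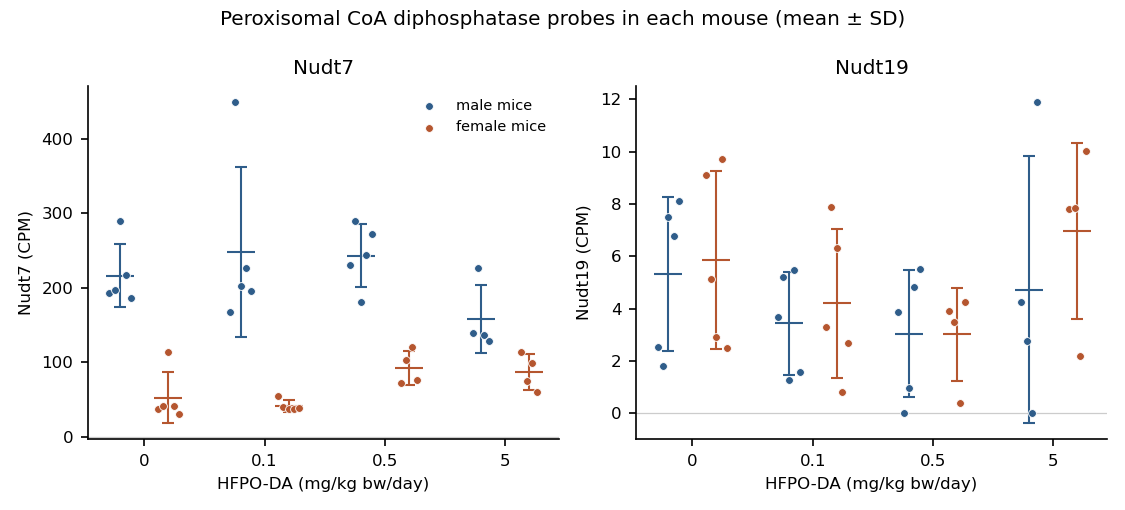
Nudt7 (left) and Nudt19 (right) in CPM on the y axes against dose on the x axes, with a point per mouse and bars for the mean ± SD of each group. The control female at 114 CPM of Nudt7 lies within the range of the females at 0.5 and 5 mg/kg, while the other 4 control females lie at 31.6 to 41.2 CPM.

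Nudt19, a second peroxisomal CoA hydrolase that is most abundant in kidney, was read at low counts. Group means ranged from 3.02 to 6.97 CPM, and 2 males had no count. At 5 mg/kg the log2 fold change was -0.15 ± 0.82 in males (SE, -1.80 to 1.5, adjusted p = 0.954). For females it was 0.25 ± 0.80 (SE, -1.37 to 1.87, adjusted p = 1). The data do not tell changes within these bounds from no change. The intervals hold the spread between mice as well as counting error. The within-mouse log2 ratio of Nudt7 to Nudt19 was compared with controls at the upper 2 doses of each sex, with adjustment over 12 ratio comparisons. The greatest difference was 2.11 in females at 0.5 mg/kg (exact two-sided permutation test, p = 0.0635, adjusted p = 0.752).

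Pank1, a pantothenate kinase abundant in liver, showed small differences only. Control females had 259, 210, 162, 211 and 223 CPM, and females at 5 mg/kg 258, 255, 344 and 286 CPM. The treated females lay in the upper part of the control range or above it, and at or above every female at 0.5 mg/kg (225 to 250 CPM). The log2 fold change relative to controls was 0.42 ± 0.18 (SE, 0.06 to 0.78, unadjusted p = 0.0230 and adjusted p = 0.269 by edgeR), or 1.34-fold. It was called with each sex fitted apart (adjusted p = 0.0589) and by DESeq2 (adjusted p = 0.0735).

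Control males had 219, 189, 154, 227 and 141 CPM of Pank1, and males at 5 mg/kg 270, 224, 127 and 227 CPM. These groups overlapped, with a log2 fold change of 0.19 ± 0.18 (SE, -0.17 to 0.55, adjusted p = 0.598). The difference between the sexes in this response was 0.23 ± 0.25 (SE, adjusted p = 0.875).

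The 3 probes of Pank2, the kinase with a mitochondrial form, were read apart. Probe 68409 had a mean of 26 ± 3.76 CPM (SD, n = 5) in control males and values of 56.6, 31.1, 40.1 and 21.6 CPM at 5 mg/kg (log2 fold change 0.52 ± 0.26 SE, adjusted p = 0.229), and DESeq2 called it (0.63, adjusted p = 0.0983). Probe 31061 had 14, 15.1, 8.99, 12.9 and 12.8 CPM in control females and 20.5, 13.4, 21.6 and 25.1 CPM in females at 5 mg/kg (0.66 ± 0.45 SE, adjusted p = 0.719), and was called with each sex fitted apart (adjusted p = 0.0458). For probe 72973 the 5 mg/kg log2 fold change was 0.12 in females and -0.03 in males.

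Pank3, a cytosolic pantothenate kinase, was at the detection limit of its probe, with 0 to 15 counts per mouse. No count was seen in any of the 4 males at 5 mg/kg, which allows up to 0.134 CPM over that group (3 counts), or in 4 of 5 control males. As both groups were at or under 3 counts, no fold is given. The males at 0.5 mg/kg had 17 counts in 2 of 5 mice, 11 of them in 1 mouse, and the step to 5 mg/kg was not called (adjusted p = 0.195). Floors and counting intervals cover counting error only.

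Pank1 and Pank3 share 72.3% of their aligned coding bases and Pank1 and Pank2 74.9%, with identical runs of at most 14 and 28 coding bases. Ratios of Pank1 to Pank2 and to Pank3 within each mouse gave no call against controls in 8 comparisons (smallest adjusted p 0.752, exact two-sided permutation tests). Pank3 had no count in 4 of 5 control males, 3 of 5 males at 0.5 mg/kg and all 4 at 5 mg/kg. It also had none in 2 mice of each female group compared. In such mice the ratio is the Pank1 count over the constant added, and so follows library depth. With 4 or 5 mice per group and adjustment over 12 ratio comparisons, only near-complete separation could be called. The lack of calls therefore does not show that these ratios were unchanged.

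**Figure D3:**
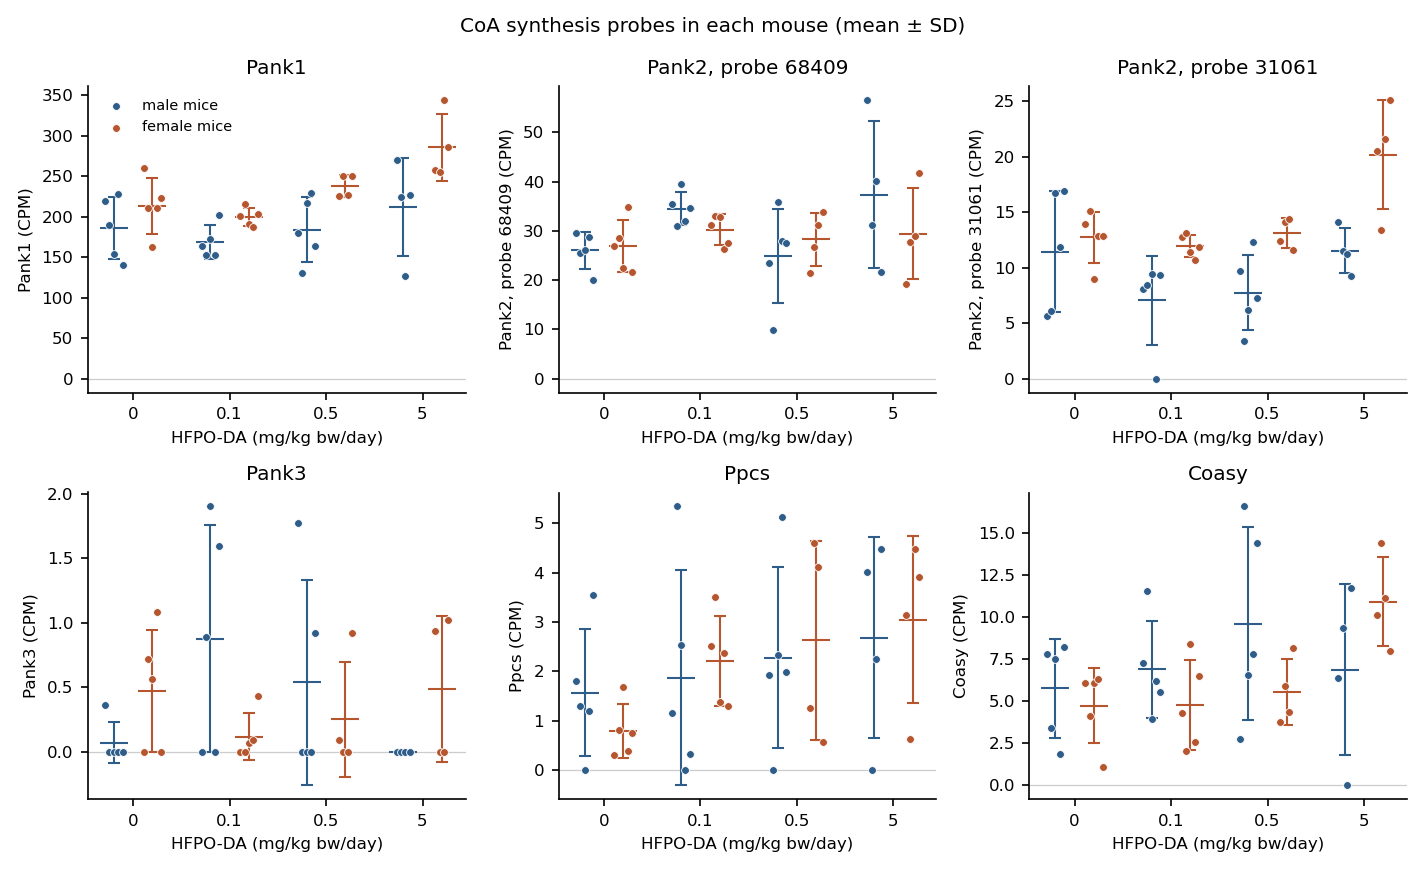
Pank1, 2 probes of Pank2, Pank3, Ppcs and Coasy in CPM on the y axes against dose on the x axes, with a point per mouse and bars for the mean ± SD of each group. Pank1 reaches 344 CPM in 1 female at 5 mg/kg, Pank3 stays under 2 CPM throughout, and the 4 females at 5 mg/kg have the highest group mean of Coasy, 10.9 CPM.

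Ppcs, which adds cysteine to phosphopantothenate, was also read at low counts, with group means of 0.792 to 3.04 CPM. Control females had the lowest mean and females at 5 mg/kg the highest (log2 fold change 1.92 ± 1.11 SE, -0.31 to 4.16, adjusted p = 0.558). In males at 5 mg/kg the log2 fold change was 0.77 ± 1.10 (SE, adjusted p = 0.762), with no count in 1 of 4 mice.

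Coasy, which carries out the last steps of synthesis, had 6.08, 4.10, 6.09, 6.29 and 1.08 CPM in control females. Females at 5 mg/kg had 10.2, 14.4, 11.1 and 8.0 CPM, all above the controls. The log2 fold change was 1.21 ± 0.61 (SE, -0.03 to 2.45, unadjusted p = 0.0553 and adjusted p = 0.428 by edgeR) and was not called. In males it was 0.29 ± 0.62 (SE, adjusted p = 0.857), with values of 6.37, 9.38, 0 and 11.7 CPM at 5 mg/kg that spanned those of controls.

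**Figure D4:**
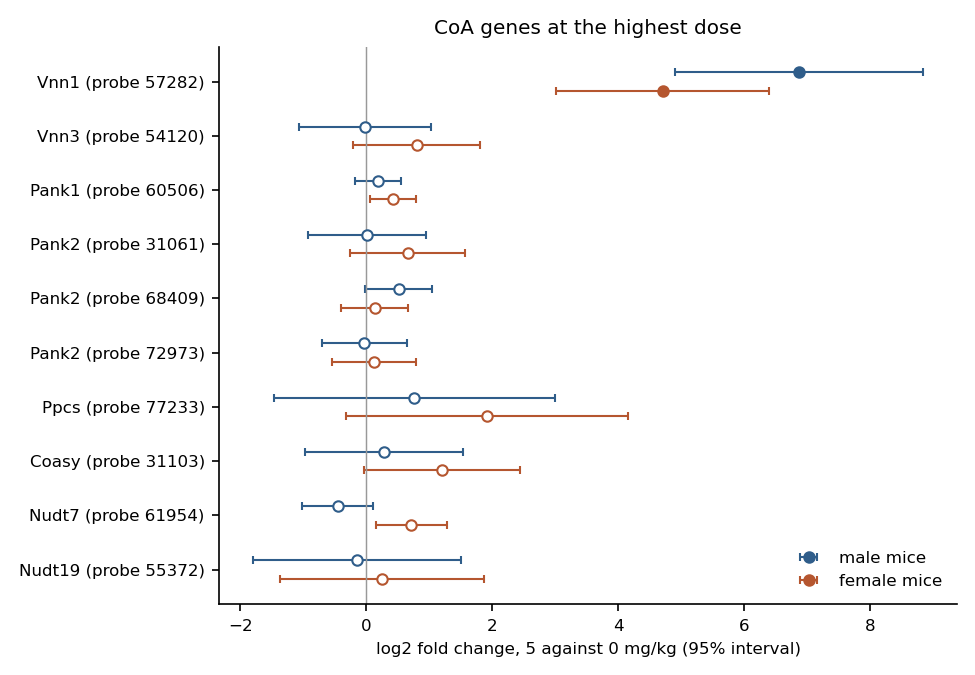
Log2 fold change at 5 mg/kg relative to controls on the x axis for 10 member probes, Pank3 left out because its counts were at the floor, with 95% intervals and filled points where the adjusted p was under 0.10. Vnn1 is the only filled pair, at 6.88 in males and 4.71 in females, and of the other intervals only those of Pank1 and Nudt7 in females do not span 0.

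In the model of all 37 mice, Vnn1 was thus the only member called for dose. In males, 1 of 11 probes was called at 0.5 mg/kg, where 0.625% of all probes were (0.382% higher), and 1 of 11 at 5 mg/kg, where 12.7% were (4.21% higher). Between 5 and 0.5 mg/kg it was again 1 of 11, against 8.73% of all probes (3.16% higher). In females, 1 of 11 was called at 5 mg/kg, against 4.52% (2.26% higher). The member counts at 5 mg/kg were thus near the background share.

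No member was called by edgeR, nor by DESeq2 among those it gave an adjusted p, in 6 comparisons. Shares of probes in brackets are, in this order, those called by edgeR, those called by DESeq2 and those at an unadjusted p under 0.05 by edgeR. The edgeR shares are of all 18570 probes tested. The DESeq2 shares are of the probes it gave an adjusted p, 4792 to 28330 by comparison. Shares of the 2 tools therefore do not have the same base. At 0.1 mg/kg no member reached an unadjusted p under 0.05 among males (0%, 0.113% and 7.14%) or females (0%, 0.0106% and 2.38%). In females 2 members reached it at 0.5 mg/kg (0.113%, 1.59% and 4.33%), and 1 did between 5 and 0.5 mg/kg (1.48%, 7.16% and 7.86%). In these 2 comparisons DESeq2 gave an adjusted p to only 3 and 6 of the 11 members, and Vnn1 was not among them, with unadjusted p-values of 0.000582 and 0.0252 by DESeq2. For the difference between the sexes no member reached it at 0.5 mg/kg (0.0108%, 0.0247% and 5.13%) and 1 did at 5 mg/kg (0.630%, 1.53% and 10.7%). At 5 mg/kg against controls DESeq2 called 2 members in males, where it called 15.8% of the 17946 probes it gave an adjusted p. Among females it called 3 members, and 12.3% of the 10277 such probes.

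For males at 5 mg/kg the 11 probes had a median log2 fold change of 0.01, with Pank3 at its fitted value, beside -0.12 over all 18570 probes. With Pank3 at a floor of 3 counts in each group this male median was 0.19. That floor puts Pank3 at 0.76 on the log2 scale, which comes from the total depth of the groups and is not a measured change. In females the median was 0.66, beside -0.01 over all probes. At an unadjusted p under 0.05 there were 3 of the 11 in females (Vnn1, Pank1 and Nudt7), where 12.3% of all probes were. Treated and control groups did not overlap, treated higher, for 1 of the 11 in males (2.78% of all probes) and for 3 in females (4.40%), namely Vnn1, Vnn3 and Coasy.

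For scale, known PPARα targets were read in the same mice. Ehhadh, a peroxisomal β-oxidation enzyme, rose at 5 mg/kg by 5.51 on the log2 scale in males (adjusted p = 2.45e-17, edgeR) and for females by 5.03 (adjusted p = 3.29e-16). Cyp4a14, a fatty acid hydroxylase, rose by 5.95 and 5.91, males first, and Pdk4, which restrains glucose oxidation, by 5.37 and 5.08. The point estimates for Vnn1, 6.88 and 4.71, were above these in males and below them in females. The Vnn1 intervals, 4.91 to 8.85 in males and 3.01 to 6.4 in females, held the values of all these genes in the same sex. No test between genes was made, so no order among them is shown.

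The genes whose 8 group means of log2 CPM, each centred on the gene's own mean, lay nearest to those of Vnn1 among 13003 genes were Cyp4a10, Cyp4a14, Ehhadh, Cd36 and Cyp4a31. Their root mean square differences were 0.46, 0.71, 0.83, 0.93 and 0.96 log2 units, beside a range of 6.77 for Vnn1. For Nudt7, with a range of 2.53, the nearest were Slco1a1 (0.24), Fam213b (0.27), Mup19 (0.28), Ces3a (0.28) and Mup16 (0.29), of which Slco1a1 is an organic anion transporter and the Mup genes encode major urinary proteins. Mean Slco1a1 was 153 CPM in control males and 49.5 CPM in control females (n = 5 each), a log2 difference of -1.63 that was not called (adjusted p = 0.227). For Pank1, whose range was only 0.76, the nearest included Eef1b2, Rpl28, Ctss and Swi5, at 0.06 to 0.07. These likenesses describe 8 group means from the same libraries.

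Other genes of CoA synthesis and transport (Pank4, Ppcdc, Dcakd, Slc5a6, Slc25a42, Slc25a16 and Aasdhppt) gave no edgeR call in any of the 11 comparisons, with 9 of their 11 probes tested. At an unadjusted p under 0.05 there were 0 of the 9 in males at 5 mg/kg, and among females 1, the probe of Slc25a42, a mitochondrial CoA carrier, which DESeq2 called. Over all probes, 23.3% (males) and 12.3% (females) were under that p. At 0.5 mg/kg in females there were 2, a Ppcdc and a Slc25a16 probe, where 4.33% of all probes were. Between males at 5 and 0.5 mg/kg DESeq2 called 1 probe, that of Dcakd, and 13.6% of all probes it tested. Chosen after values were seen, as were the other probes named here, Slc25a42 had a mean of 6.08 ± 3.97 CPM in control females (SD, n = 5) and 15.4 ± 4.66 CPM at 5 mg/kg (SD, n = 4). At 5 mg/kg the 9 probes had median log2 fold changes of -0.24 (males) and -0.17 (females), beside -0.12 and -0.01 over all probes.

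Cdo1 and Csad were called for dose among 8 genes of CoA breakdown, cysteamine and taurine (Ado, Btd, Cdo1, Csad, Fmo1, Gadl1, Nudt8 and Slc6a6). Cysteamine is oxidised to hypotaurine and taurine. Both called genes act on the route from cysteine to taurine, not on CoA or cysteamine. Of the list's probes, 9 of 11 were tested, from 7 genes. At 5 mg/kg, 1 of the 9 was lower and none higher in males, and 1 was lower and 1 higher in females. Over all probes, 8.49% were lower and 4.21% higher in males, and 2.26% each way in females. The 9 probes' median log2 fold change was 0.05 (males) and -0.24 (females).

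Cdo1, cysteine dioxygenase, begins the route from cysteine to taurine and so draws on the amino acid that Ppcs uses. Control males had 342, 351, 468, 306 and 324 CPM, males at 0.5 mg/kg 309, 163, 210, 213 and 202 CPM, and males at 5 mg/kg 111, 115, 60.8 and 111 CPM. Of the males at 0.5 mg/kg, 4 of 5 lay under every control, and at 5 mg/kg all lay under those at 0.5 mg/kg. Cdo1 fell by 1.84 ± 0.21 on the log2 scale at 5 mg/kg (SE, adjusted p = 2.29e-08) and by 1.1 ± 0.21 from 0.5 to 5 mg/kg (SE, adjusted p = 0.000338). At 0.5 mg/kg the call was marginal (-0.70 ± 0.19 SE, adjusted p = 0.0969) and was lost on leaving out any of 31 of the 37 mice.

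In females Cdo1 went from 304, 310, 280, 238 and 337 CPM in controls to 128, 157, 148 and 216 CPM at 5 mg/kg, without overlap. It fell by 0.86 ± 0.20 on the log2 scale (SE, adjusted p = 0.00664). The difference between the sexes in this response was 0.99 ± 0.28 (SE, adjusted p = 0.147 by edgeR, and 0.0636 by DESeq2).

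Csad, cysteine sulfinic acid decarboxylase, acts on the product of Cdo1. Control females had 1.89, 2.76, 13.5, 1.28 and 0.999 CPM, females at 0.5 mg/kg 1.43, 9.41, 2.63 and 3.91 CPM, and females at 5 mg/kg 40.1, 32, 34.6 and 15.3 CPM. The females at 5 mg/kg stood above all other females. Csad rose by 2.89 ± 0.54 on the log2 scale relative to controls (SE, adjusted p = 0.000305) and by 2.82 ± 0.58 relative to 0.5 mg/kg (SE, adjusted p = 0.00379). Without control replicate 3 the first of these was 4.13 (adjusted p = 6.22e-07).

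Control males had 59.6, 43.7, 51.4, 72.8 and 21.6 CPM of Csad, above every control female, and the sexes differed by -3.60 ± 0.53 (SE, adjusted p = 8.37e-06), or -4.88 without female control replicate 3 (adjusted p = 9.81e-09). Males at 5 mg/kg had 115, 132, 142 and 94.1 CPM, all above the controls, and the log2 fold change of 1.28 ± 0.50 (SE) had an adjusted p of 0.107, just over the threshold. It was called under 5 alternatives, among them each sex fitted apart (adjusted p = 0.0141). The difference between the sexes in the response was 1.62 ± 0.72 (SE, adjusted p = 0.412), and 2.87 without female control replicate 3 (adjusted p = 0.0317). Fmo1, which can make taurine from hypotaurine and is named after its values were seen, was higher in control females than in control males by 1.45 and 1.47 on the log2 scale on 2 of its 3 probes (adjusted p = 0.0103 and 3.11e-05).

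**Figure D5:**
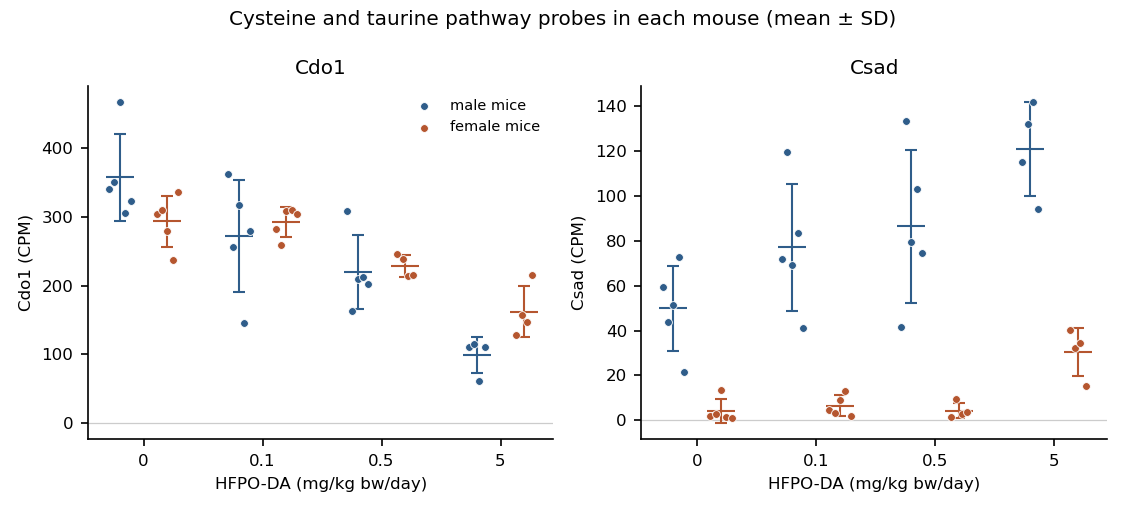
Cdo1 (left) and Csad (right) in CPM on the y axes against dose on the x axes, with a point per mouse and bars for the mean ± SD of each group. Cdo1 lies lowest at 5 mg/kg in both sexes, and Csad lies at 15.3 CPM or above in the females at 5 mg/kg and at 13.5 CPM or below in all other females.

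Promoter windows of RefSeq (GRCm38.p6), read as the 250 bases before the start, held entries for 7 members, in 11 windows. Vnn1 and Coasy had no entry. The hexamer AGGTCA in 2 copies with 1 base of any kind between, the direct repeat that PPARα binds with its partner receptor, was searched on both strands. It was found in 0 of the 11, and in 0.0335% of all 32851 windows. As the exact repeat was this rare over all windows, its absence from the 11 says nothing about the members. A single AGGTCA was found in 1 of the 11, that of Ppcs, and in 14% of all windows.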

How the data were processed

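TempO-Seq data of 37 mouse livers were used, of 40 sampled. Per the labels, the submitters' processing notes name bcl2fastq 2.17.1.14 and Bowtie, and the genome build and Bowtie version are not given in the sources used here. What the authors deposited were raw whole-number counts per probe, with no normalization, after leaving out 3 libraries that were shallow or detected few probes. Mice were grouped by the labelled sex and dose and numbered in accession order. No 2 libraries of a group agreed within sampling noise (chi-square per degree of freedom at least 20.0).

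For the counts, edgeR 4.0.16 (R 4.3.3) was run with filterByExpr over the 8 groups, TMM, and 1 quasi-likelihood fit of all 37 mice with a mean per group. P-values of each of 11 comparisons were adjusted over 18570 probes by Benjamini-Hochberg, with a threshold of 0.10. CPM are TMM-scaled. SE were taken from the test statistic. Ratios within a mouse (0.5 added to each count) were compared by exact permutation. DESeq2 1.42.0, with its own filter, was the alternative tool. The scripts were tested on simulated data. Other settings are given with the results that depend on them.

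The members and lists were chosen with earlier results of these data known. All 9 members were to be named, with other listed genes called in a dose comparison. So were the 5 genes nearest to Vnn1, Pank1 and Nudt7, and 4 PPARα targets. Of these, 2 genes are not reported here. Probe sequences were not used here. Levels of different genes were not compared, as probes differ in yield. Depth, at 2101495 to 13878254 counts, limits the precision of low probes, together with the spread between mice.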

Additional observations from a re-analysis of the deposited data

Results flagged for a closer look

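Single mice stood apart from their groups in 15 of 103 sets of values, taken over 13 probes (the 11 member probes, Cdo1 and Csad) and 8 groups, by the ratio of the gap beside the extreme mouse to the group's range. The cut-off would flag about 1 in 20 sets of normally distributed values, which low counts are not. Where all mice but 1 were at 0 the ratio was 1 whatever the value. This held for Vnn1 in males at 0 and 0.1 mg/kg and for Pank3 in control males. The 15 flags are therefore not a measure of an excess over chance. For Nudt7 these were 113.9 CPM in female control replicate 3, 55.4 CPM in female replicate 1 at 0.1 mg/kg, 448.8 CPM in male replicate 2 at 0.1 mg/kg and 226.5 CPM in male replicate 2 at 5 mg/kg, each the highest of its group. Female control replicate 3 was also the highest of its group in Csad, at 13.5 CPM. Male control replicate 2 was the highest of its group in Vnn1, at 1.43 CPM, and in Vnn3, at 32.2 CPM. Other Vnn values that stood apart were 1.01 CPM of Vnn1 in male replicate 3 at 0.1 mg/kg, where the others were at 0, and 23.9 CPM of Vnn3 in female replicate 2 at 5 mg/kg, the lowest of that group. For Pank3 they were 0.36 CPM in male control replicate 1, 0.434 CPM in female replicate 5 at 0.1 mg/kg and 0.919 CPM in female replicate 4 at 0.5 mg/kg, of at most 8 counts each. Pank2 probe 31061 was at 0 in male replicate 4 at 0.1 mg/kg. Cdo1 was highest at 467.6 CPM in male control replicate 3 and lowest at 60.8 CPM in male replicate 3 at 5 mg/kg, a library with 2101495 counts.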

How the results depend on the processing

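Every comparison was recomputed with each mouse left out, with DESeq2, with its size factors in edgeR, with no filter or one on a mean of 10 counts, robustly, with each sex apart, with probes summed per gene, with counts thinned to the smallest library and at a threshold of 0.05. Leaving out the 2 shallowest libraries was chosen after seeing the data, and it moved no count of called member probes. The count of members called at 0.5 mg/kg in females, 0, became 1 without the filter, with each sex apart and with thinned counts. With each sex apart it also became 0 for males between 5 and 0.5 mg/kg (Vnn1, 2.63, adjusted p = 0.149), 4 for females at 5 mg/kg and 1 for females between 5 and 0.5 mg/kg. DESeq2 called 2 members at 5 mg/kg in males and 3 for females. With each mouse left out, counts ranged from 0 to 1 (males at 0.5 mg/kg, females at 0.5 mg/kg, difference between the sexes at 5 mg/kg), 1 to 2 (males between 5 and 0.5 mg/kg, females at 5 mg/kg) and 1 to 3 (control sexes). The mice concerned were female control replicate 3, male control replicate 2, male replicate 4 at 0.5 mg/kg and male replicate 2 at 5 mg/kg.

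Among 12 within-mouse ratios, none called, the difference of Pank1 to Pank3 in males at 5 mg/kg went from 0.14 to -0.16 with 2 in place of 0.5 added to each count. With each mouse left out it ranged from -0.33 to 0.68, and in females at 5 mg/kg from -0.16 to 1.48. Pank1 to Pank2 ranged from -0.043 to 0.24 in males and -0.00071 to 0.19 in females at 0.5 mg/kg, and from -0.57 to 0.0054 in males at 5 mg/kg. Nudt7 to Nudt19 in males at 5 mg/kg ranged from -0.62 to 1.41. The cause was not tested.

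Of 165 results of 15 named probes, 135 were never called, and 192 of their 6248 values under the alternatives had the other sign. No paired analysis was made, as the dose groups of a sex were separate mice. Low counts limit Pank3, Ppcs and Nudt19.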
